A study of Mus musculus with 18 samples.

Results

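EphB receptors and ephrin-B ligands are the 8 genes described here, 5 receptor genes (Ephb1, Ephb2, Ephb3, Ephb4 and Ephb6) and 3 ligand genes (Efnb1, Efnb2 and Efnb3), among 27179 genes in the tables per gene. They were chosen by name, as the whole EphB and ephrin-B families, and their rows were found by Entrez identifier in the tables of stages and regions and by RefSeq transcript in the table of Hoxc8 mutants. RNA of mouse spinal cells sorted by FACS as motor neurons (MNs) was sequenced in 18 samples. The p8 samples (3 brachial, 3 thoracic and 3 lumbar) came from Chat IRESCre::Ai9 pups, in which tdTomato marks every cell that has made Cre from the Chat locus. The e12.5 samples, all brachial, were sorted by GFP and comprise 3 Hoxc8 MNΔ samples and 6 samples labelled wildtype. Mnx1-GFP was carried by the embryos of the stage comparison and by the mutants, which the paper names Hoxc8 MNΔ early::Mnx1-GFP. In the mutants Cre from the Olig2 locus, active in MN progenitors, deletes floxed Hoxc8, and the methods name Hoxc8 fl/fl animals as their controls. Cords were pooled within each replicate of the e12.5 Mnx1-GFP embryos of the stage comparison and of the Chat IRESCre::Ai9 pups. Pooling is not stated for the mutants and their controls. Chat and Mnx1 are both known to be active in a minority of other spinal neurons.

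Eph receptors are tyrosine kinases that bind ephrins on the surface of neighbouring cells. Ephrin-B ligands span the membrane, so that contact sends a forward signal into the cell with the receptor and a reverse signal into the cell with the ligand. In the developing cord EphB1 is known for guiding the axons of medial lateral motor column neurons into the ventral limb, away from ephrin-B in the dorsal limb mesenchyme, and ephrin-B3 is known as a barrier at the cord midline. Ephrin-B2 and EphB4 are best known as the marks of arteries and of veins, and ephrin-B3 has also been described in myelin.

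The deposited tables hold no value per sample. For each gene or transcript they give a base mean, which is the mean over all samples of a table of its reads after each sample was scaled for sequencing depth. A base mean therefore carries no SD and no n of its own, and no difference between regions, stages or genotypes was tested. It was taken from 3 sources. The 3 regional tables share identical base means and cover the p8 samples of all 3 domains. Some MN markers go against the MN label there, with a base mean of 14.1 for Chat, 0.696 for Mnx1 and 0 for Lhx3. The Chat locus drove the reporter. Others were higher, with 493 for Foxp1, 443 for Prph and 165 for Slc5a7. The paper reports low Mnx1-GFP expression postnatally and describes Lhx3 as a factor of small brachial MN populations. By antibody staining, however, it reports Mnx1 and Lhx3 in brachial MNs at p8, at lower levels than in the embryo. That evidence is of protein in brachial sections, while the base means are of RNA over all 3 regions. The 9 MN markers made up 0.00636% of summed base means in the p8 tables, where Mbp, the gene of myelin basic protein of oligodendrocytes, alone made up 35.2%. In the table of Hoxc8 mutants and controls at e12.5, 7 interneuron markers summed to 20390 and the 9 MN markers to 5969. The highest marker of each list there was Pax2 with 10167 and Mnx1 with 3970. Levels at both stages are therefore given as those of the sorted samples. The stage table mixes e12.5 and p8 brachial samples, and the mutant table mixes Hoxc8 MNΔ and control samples at e12.5. Each source was normalized on its own. Base means summed to 17963281 in the p8 tables, 22335833 in the stage table and 13384207 in the mutant table. Where a pooled level is high or low, fewer cells of a type and less RNA per cell cannot be told apart.

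In the p8 samples 2 members stood above all others. Ephb1 had a base mean of 3783 and Efnb3 of 3582 normalized counts, against 49.7 to 126 for the other 6 genes. Divided by the length of the longest transcript, the level of Efnb3 was 1125 per kb and that of Ephb1 was 811 per kb, and together they made up 94.0% of the summed level per kb of the family. Among all 18447 genes with a length and reads, Efnb3 lay at percentile 96.8 and Ephb1 at percentile 95.4 of level per kb. The level per kb of Ephb1 was 24.2 times that of Ephb6, the receptor next in order, and the level of Efnb3 was 31.3 times that of Efnb1, the next ligand.

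**Figure D1:**
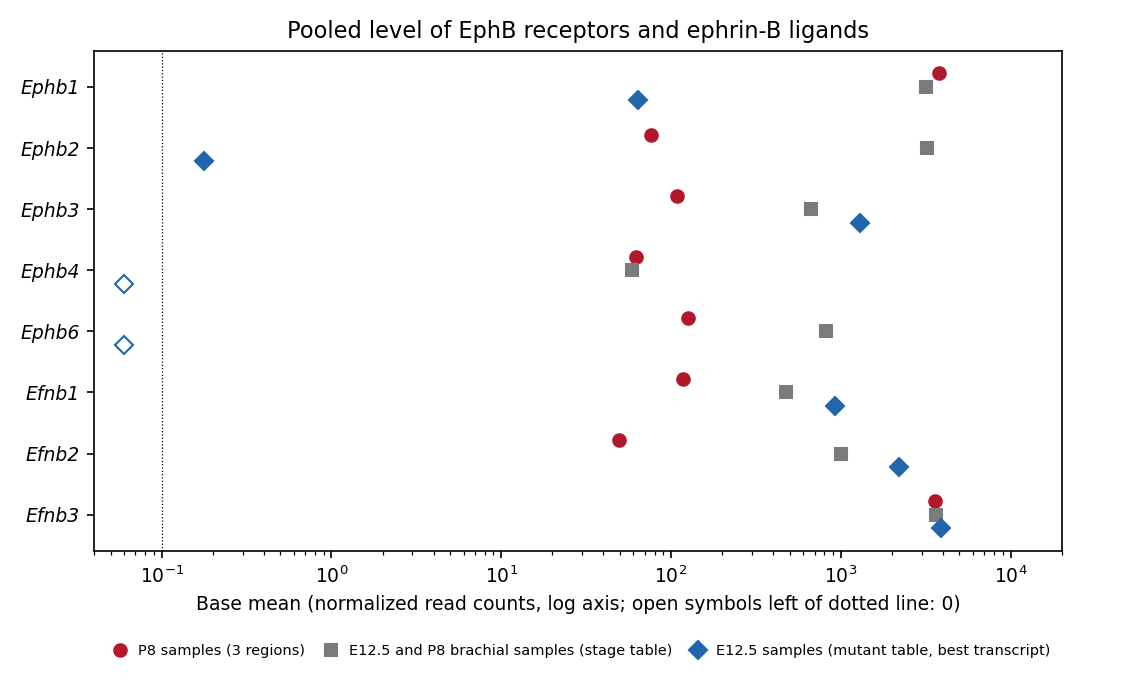
Base mean (horizontal log axis, normalized read counts) of each gene in the p8 tables (circles), the stage table (squares) and the mutant table (diamonds, transcript with the highest base mean); open symbols left of the dotted line stand for 0. Efnb3 lies between 3582 and 3900 in the 3 separately normalized sources, while Ephb1 is at 64.0 in the mutant table.

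Ephb1 lies on chromosome 9 from 101922128 to 102354693 of GRCm38, on the minus strand. It takes 91.2% of the summed receptor level per kb in the p8 tables and 50.5% in the stage table, where its base mean is 3163. Of the 7046 stretches of 50 bases (the read length) in its annotated transcripts, 109 also occur in Gm26846, a noncoding gene on the opposite strand that shares 152 exonic bases with it, and none occurs in another member of the family. The sources used here do not say whether counting used strand.

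Ephb2 (chromosome 4 from 136647539 to 136835988), whose product is known for shaping synapses as well as axon paths, had the most unequal levels among the receptors. Its base mean was 76.6 in the p8 tables and 3212 in the stage table, next to 3783 and 3163 for Ephb1. Per kb of longest transcript it was last of the 8 genes at p8, at 7.03, and behind only Efnb3 and Ephb1 in the stage table, at 295. Its last place at p8 rests on that length. Ephb2 was above Ephb4 per kb of coding sequence (25.9 against 20.9) and of mean transcript (19.7 against 15.5). The ratio of Ephb2 to Ephb1 was 0.00867 in the p8 tables and 0.435 in the stage table per kb of longest transcript, and 0.0202 and 1.01 per kb of coding sequence. Both ratios are taken within a table, and how far the e12.5 samples set the level of Ephb2 in the stage table was not tested.

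Ephb3 (chromosome 16 from 21204755 to 21223305), which often acts beside EphB2 in the growth of commissural axons, had a base mean of 108 in the p8 tables, 665 in the stage table and 1294 in the mutant table. Ephb6 (chromosome 6 from 41605482 to 41620509) had 126 in the p8 tables and 815 in the stage table. Ephb4, the receptor of venous endothelium (chromosome 5 from 137350109 to 137378669), was low in both sources per gene, with 62.3 in the p8 tables and 59.0 in the stage table. At 13.6 per kb it was the last of the 8 genes in the stage table, at percentile 32.2 of all genes with reads. It shares 33 exonic bases with Zan on the opposite strand, a gene with base means of 2.46 in the p8 tables and 2.19 in the stage table.

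EphB6 is known to lack kinase activity, and the coding sequence shows where it departs from its relatives. The codons of the catalytic loop, found by aligning each receptor with Ephb2, are printed here from the GENCODE transcripts (GRCm38), with the codon that aligns with the catalytic aspartate in capitals. In Ephb1, Ephb3 and Ephb4, 8 of 8 codons encode the residue found in Ephb2, and in Ephb6 5 of 8 do.
Ephb1 (chr9:101964031-101964054, minus strand): caccggGACctggctgctagaaac
Ephb2 (chr4:136659662-136659685, minus strand): caccgtGACcttgctgctcgaaac
Ephb3 (chr16:21221378-21221401, plus strand): caccgtGACcttgctgcccgaaac
Ephb4 (chr5:137369806-137369829, plus strand): caccgaGACctggctgctcggaac
Ephb6 (chr6:41618664-41618687, plus strand): caccgaGCActctcggcccgaagt

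Over their whole aligned length the encoded receptors shared between 46.4% (Ephb4 and Ephb6) and 73.5% (Ephb1 and Ephb2) of residues. No stretch of 50 bases was shared between any members, so a read without mismatches belongs to 1 gene of the family. Stretches shared with genes outside the family made up 1.55% of those of Ephb1, 0.221% of Ephb2 and 0.118% of Ephb3, and no shared stretch was found for the other 5 genes in the annotated transcripts.

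Among the ligands, Efnb3 (chromosome 11 from 69554092 to 69560205) had a base mean of 3582 in the p8 tables, 3651 in the stage table and 3900 in the mutant table. Scaled to a summed base mean of 1000000 per source, these levels were 199, 163 and 291, and with the 20 highest features left out of the sum 408, 232 and 319. Efnb2 (chromosome 8 from 8617434 to 8661242) had a base mean of 49.7 in the p8 tables, 1008 in the stage table and 2195 in the mutant table. For Efnb1 (chromosome X from 99136130 to 99148991) the base means were 117, 476 and 927 in the same order. Efnb3 made up 96.04% of the summed ligand level per kb in the p8 tables, 76.3% in the stage table and 62.3% in the mutant table. The level per kb of Efnb3 was 109 times that of Efnb2 at p8 and 5.46 times in the stage table.

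Reverse signaling through ephrin-B uses tyrosines and a binding site for PDZ proteins at the very end of the cytoplasmic tail. The last 11 codons before the stop codon are printed from the same source, with the 4 codons of the PDZ-binding end in capitals. They are nearly alike in genes whose encoded proteins otherwise share between 44.1% (Efnb2 and Efnb3) and 57.0% (Efnb1 and Efnb2) of aligned residues.
Efnb1 (chrX:99147492-99147524, plus strand): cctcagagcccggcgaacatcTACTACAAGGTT
Efnb2 (chr8:8620591-8620623, minus strand): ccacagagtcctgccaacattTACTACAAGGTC
Efnb3 (chr11:69555863-69555895, minus strand): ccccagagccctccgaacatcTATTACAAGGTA

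Receptors made up 43.1% of the summed level per kb of the 8 genes in the p8 tables and 47.2% in the stage table. This share rests on the length chosen. Per kb of coding sequence it was 27.7% in the p8 tables and 34.6% in the stage table, and per kb of the mean annotated transcript it was 56.6% and 62.1%. Efnb3 and Ephb1 were the 2 highest genes at p8 under all 3 lengths, with Efnb3 first on 2 of them and Ephb1 first on the mean transcript length. In the stage table Ephb2 ranked above Ephb1 per kb of coding sequence, with 1085 against 1071. How far such neighbours differ beyond the spread of samples cannot be given.

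**Figure D2:**
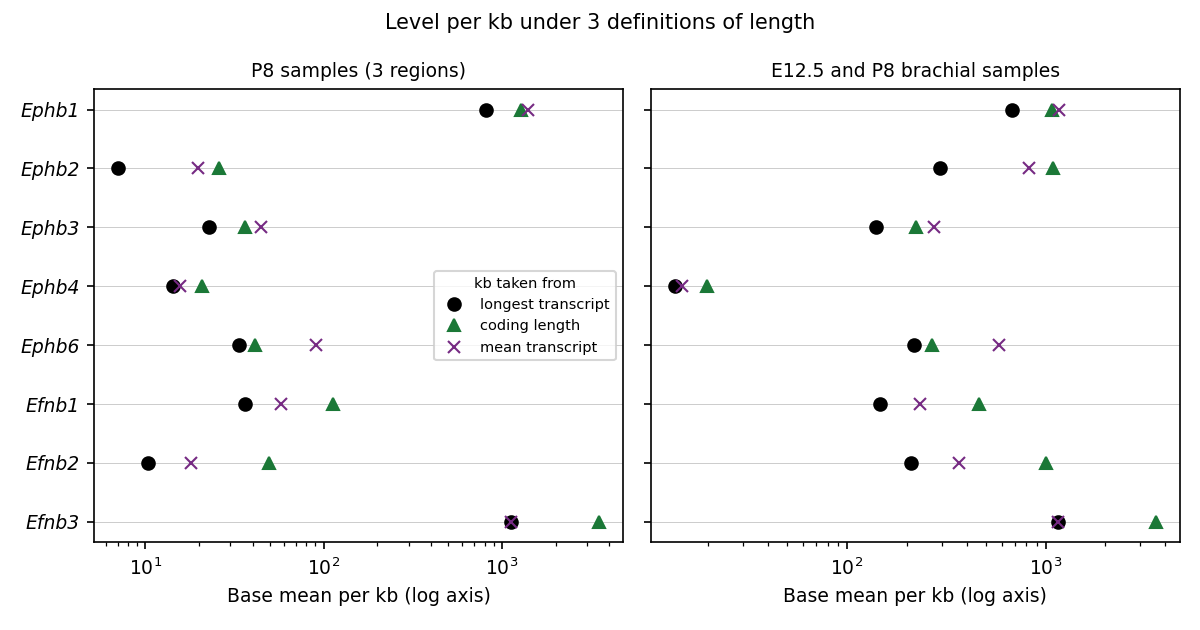
Base mean per kb (horizontal log axes) of each gene in the p8 tables (left) and the stage table (right), with kb taken from the longest annotated transcript (circles), the coding sequence (triangles) or the mean transcript (crosses). Ephb1 and Efnb3 lie above all other genes at p8 under each length, and Ephb4 is lowest in the stage table.

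The mutant table is counted per RefSeq transcript, and there Ephb2, Ephb4 and Ephb6, 3 of the 5 receptors, have next to no reads. It lists 12 transcripts of the family. Ephb3, Efnb1, Efnb2 and Efnb3 have 1 transcript each and base means of 927 to 3900. Ephb1, Ephb2, Ephb4 and Ephb6 have 2 each, and of these 8 transcripts 6 are listed at 0. The others are NM_173447 of Ephb1 with 64.0 and NM_001290753 of Ephb2 with 0.178. The last value is shared by 201 transcripts and is among the 6 commonest of the table, which lie between 0.142 (the lowest above 0) and 0.183, and values repeated in this way are what 1 read in 1 sample would give. Yet in the stage table, which includes e12.5 samples, Ephb1, Ephb2 and Ephb6 have 3163, 3212 and 815 normalized counts. It also includes p8 samples, and in the p8 tables these genes had 3783, 76.6 and 126 in the same order. The stage level of Ephb1 therefore does not show its level at e12.5.

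The same contrast holds across the table. Of 7284 genes with 1 listed transcript and 100 or more normalized counts in the stage table, 137 (1.88%) have a base mean under 1 in the mutant table. With 2 listed transcripts it is 614 of 2197 genes (27.9%), and with 3 or more it is 721 of 1970 (36.6%). Medians in the mutant table were 713 for genes with 1 transcript and 4.75 for genes with 2 or more, whose medians in the stage table were 645 and 794. Ephb1, Ephb2, Ephb4 and Ephb6 have 2 listed transcripts each, and their low values in the mutant table are not read as low RNA levels. Ephb4, with 59.0 in the stage table, is below the limit of 100 and outside these counts. Why such genes are low there was not tested.

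**Figure D3:**
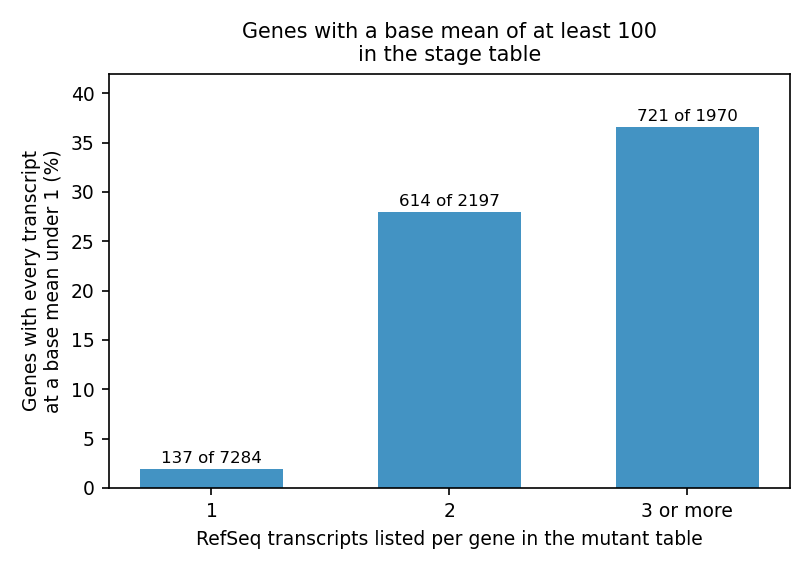
Percent of genes with every transcript at a base mean under 1 in the mutant table (vertical axis), by the number of RefSeq transcripts the table lists for the gene, among genes at or above 100 normalized counts in the stage table; counts stand above the bars. The share is 1.88% for genes with 1 transcript and 36.6% for genes with 3 or more.

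The sequence that only one listed transcript of a gene holds differs in length between the receptors. In the GENCODE models, NM_173447 of Ephb1 has 566 bases outside NM_001168296, which has none of its own, and 123 of them are a coding block. The listed transcripts of Ephb4 have 27 and 71 bases of their own, and the 2 of Ephb6 match the same model and have none. For Ephb2 the coding difference is 3 bases in NM_001290753, while NM_010142 has a further 6101 noncoding bases and is listed at 0. The authors' transcript models may differ from these, and which annotation release they counted on is not given in the sources used here. The coding blocks are printed with 20 flanking coding bases in lower case and the bases of the named transcript alone in capitals (GRCm38; the coordinates are those of the capitals).
Ephb1 NM_173447 (chr9:101984082-101984204, minus strand): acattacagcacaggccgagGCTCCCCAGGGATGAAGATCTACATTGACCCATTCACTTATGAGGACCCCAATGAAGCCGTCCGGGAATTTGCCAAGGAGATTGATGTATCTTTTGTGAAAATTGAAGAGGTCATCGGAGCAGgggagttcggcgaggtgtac
Ephb2 NM_001290753 (chr4:136675531-136675533, minus strand): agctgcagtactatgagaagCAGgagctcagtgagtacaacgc
Ephb4 NM_001159571 (chr5:137362363-137362389, plus strand): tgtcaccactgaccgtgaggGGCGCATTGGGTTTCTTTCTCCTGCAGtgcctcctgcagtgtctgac

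For the 4 genes with 1 listed transcript the pooled p8 and e12.5 levels can be set side by side, although the 2 sources were normalized separately and differ in reporter, cord segments, genotype and the unit counted. Over 8029 genes with 1 listed transcript that reached 10 normalized counts in both, the median log2 ratio of p8 over e12.5 base means was -1.25. Efnb3 had a log2 ratio of -0.12, above the median and at percentile 71.5 of these genes. Its sign depends on the scaling between the tables. With base means divided by the summed base mean of their table the ratio was -0.55 (median of all genes -1.68), and with the 20 highest features left out of that sum it was 0.36 (median -0.77). Efnb1 stood at -2.98 (percentile 19.4), Ephb3 at -3.58 (percentile 12.9) and Efnb2 at -5.47 (percentile 3.28). All 3 were below the median, and all 3 were below 0 under each scaling. The scaling shifts every gene and the median alike, so the position against the median cannot change with it. These ratios have no error and were not tested. They cannot be told apart from a difference between the cell mixtures sorted at the 2 stages.

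**Figure D4:**
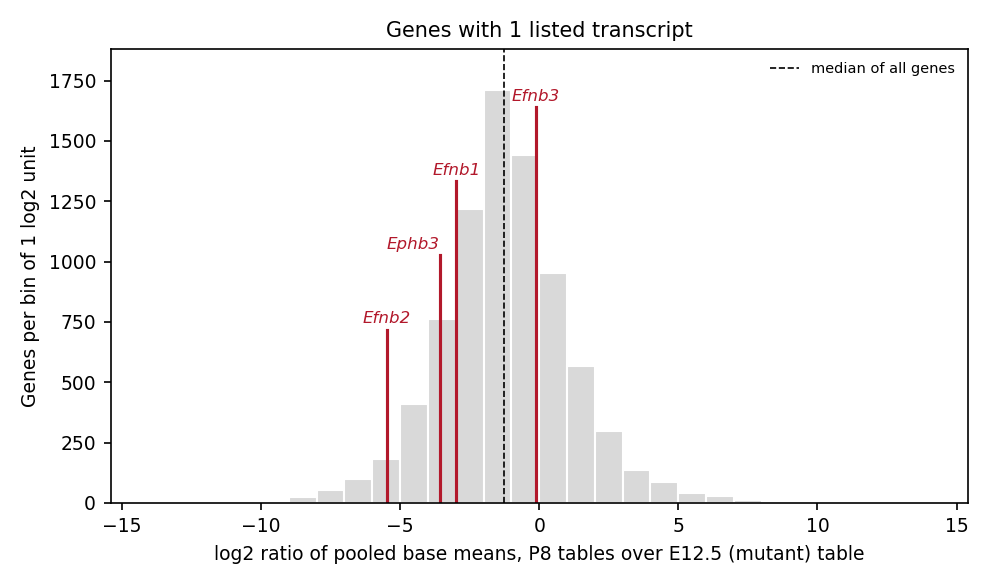
Number of genes (vertical axis) per bin of the log2 ratio of pooled base means, p8 tables over the e12.5 mutant table, for 8029 genes with 1 listed transcript; red lines mark the 4 family members and the dashed line the median of -1.25. Efnb2 lies at -5.47 and Efnb3 at -0.12, and Efnb3 turns to 0.36 when the 20 highest features are left out of the table totals.

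Markers of other cells differ widely between the sources, and their part in the levels of the family was not tested. Of 9 MN markers, 5 had a base mean of at least 10 in the p8 tables, led by Foxp1 (493) and Prph (443), with Chat at 14.1 and Lhx3 at 0. How many of all genes reach that level is not given. Among all genes with reads, the median percentile of level per kb of the MN markers with reads was 30.3 in the p8 tables and 63.7 in the mutant table. At e12.5 in the mutants and controls 7 of 9 did, led by Mnx1 (3970) and Slc18a3 (801), with Prph, a gene of 3 listed transcripts, at 0. The stage table, where all 9 did, was led by Foxp1 (2917) and Mnx1 (2338). Among oligodendrocyte markers, Mbp made up 35.2% of summed base means in the p8 tables and 19.8% in the stage table. It had 841 normalized counts in the mutant table, for the highest of 8 listed transcripts. Mog, a gene of 1 listed transcript, had 19645 normalized counts in the p8 tables and 124 in the mutant table. Mag had 26288 in the p8 tables and is at 0 in the mutant table, where it has 7 listed transcripts. Microglia markers, led by Csf1r (5824 at p8) and Itgam (3054 at p8), summed to 12180 in the p8 tables and 84.8 in the mutant table, and astrocyte markers, led at p8 by Gfap (1986) and Aqp4 (1016), to 3889 and 1777. The astrocyte sum is higher at p8 through Gfap, Aqp4 and Gjb6, genes of 2 or more listed transcripts that are at 0 in the mutant table. The astrocyte genes with 1 listed transcript had lower base means at p8, Slc1a3 with 730 in the p8 tables and 1537 in the mutant table and Aldh1l1 with 79.0 in the p8 tables and 240 in the mutant table. Their log2 ratios of -1.07 and -1.60 lie on either side of the median of -1.25 over genes with 1 listed transcript. In the mutant table the microglia list was led by Csf1r (47.6) and Cx3cr1 (24.4), genes of 1 listed transcript. Itgam, a gene of 2 listed transcripts, is at 0 there. Markers of inhibitory and excitatory interneurons summed to 71.5 in the p8 tables, where Gad1 (50.8) and Slc17a6 (13.8) led and Pax2 is at 0. They summed to 20390 in the mutant table, where Pax2 (10167) and Slc32a1 (2762) led, and Pax2 (4698) and Gad1 (1574) led in the stage table. In the stage table the astrocyte list was led by Gfap (1049) and Slc1a3 (720), and the microglia list by Csf1r (4454) and Itgam (4265).

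Markers of vessel cells, in which Efnb2 and Ephb4 are best known, had reads in the p8 and mutant tables. All 6 endothelial markers had a base mean of at least 10 in the p8 tables, and 4 of 6 did in the mutant table. Their median percentile of level per kb was 58.0 in the p8 tables. Cldn5 had 663 and Kdr 352 in the p8 tables, against 39.0 and 85.9 in the mutant table, while Cdh5 had 36.1 in the p8 tables and 48.3 in the mutant table. In the stage table Cldn5 (345) and Pecam1 (244) led. Their summed base mean was 1705 in the p8 tables and 190 in the mutant table, where Pecam1 and Tek, of several transcripts each, are at 0. The 3 pericyte markers summed to 337 in the p8 tables and 219 in the mutant table. They were led at p8 by Pdgfrb (207) and Rgs5 (72.7) and in the stage table by the same genes (232 and 85.8). All 3 have several listed transcripts in the mutant table, with Rgs5 at 219 and Pdgfrb and Kcnj8 at 0.

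Genes that work with the family were read at p8 and in the stage table alike. Epha4, an EphA receptor that also binds ephrin-B ligands, had 158 normalized counts in the p8 tables, 2187 in the stage table and 4697 in the mutant table. Efna5, an ephrin-A that also binds EphB2, had 13.97, 678 and 9.93 in the same order, the last for a gene of 2 listed transcripts. All 9 adaptors and kinases of forward signaling reached a base mean of at least 10 in the p8 tables, at a median percentile of level per kb of 65.5. Fyn, a Src family kinase, led them with 8711, followed by Crk with 1481. Fyn (7422) and Abl1 (2619) led them in the stage table, and Rasa1 (2158), a Ras GTPase-activating protein, and Nck2 (885) in the mutant table, where these are the only genes of the list with 1 listed transcript.

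Of 7 cytoplasmic partners of ephrin-B, 6 had a base mean of at least 10 at p8, and the median percentile of level per kb of the list was 52.8. Sdcbp, the PDZ protein syntenin, led with 1753 in the p8 tables and 3170 in the stage table. It is at 0 in the mutant table, where it has 2 listed transcripts. Rgs3 followed at p8 with 550. The exception was Grip2, a PDZ adaptor of ephrin-B tails, with 6.18 in the p8 tables, 662 in the stage table and 1367 in the mutant table. Pick1 followed Sdcbp in the stage table with 1113, and Ptpn13 followed Grip2 in the mutant table with 1353. Among proteases and ubiquitin ligases, Adam10, a protease that cuts ephrins, had 685 in the p8 tables, 1981 in the stage table and 4010 in the mutant table. Cblb had 2076 in the mutant table, where Psen2, a gene of 2 listed transcripts, is at 0. Hoxc8, the gene deleted in the mutants, had 79.5 in the p8 tables, 6237 in the stage table and 19301 in the mutant table. Its loss in the Hoxc8 MNΔ samples could not be checked from these base means without values per sample. The paper reports by staining that Foxp1-positive MNs of the mutants had no detected Hoxc8 protein at e12.5.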

How the data were processed

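RNA of cells sorted as MNs was measured in 18 samples, grouped by stage, region and genotype as labelled. The authors aligned unique reads of 50 bases to GRCm38 (mm10) with the aligner printed as HISET2 (HISAT in the submitters' processing notes), used featureCounts for counting and DESeq2 for the comparisons, all on Galaxy. Versions, annotation release and low-count filters are not given in the sources used here. They deposited 5 tables, each with a base mean, a signal averaged by the authors over all samples of the table. The other columns hold the authors' own comparisons (fold change, standard error, Wald statistic, p-values) and were not used. Depth per sample is unknown, and no test was made. No interval can be given for a base mean.

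Members, markers and pathway lists were chosen with earlier results of these data known. All 8 members are named, and from each list the 2 genes with the highest base mean in a source and any gene at 0. Some list genes, the list totals that need them and 1 pathway list are not reported here. Symbols came from RefSeq GRCm38.p6 (93.0% of genes and 99.2% of transcripts matched), with the highest base mean standing for a symbol. Lengths, exons and sequences came from GENCODE M21. Percentiles are of level per kb over genes with reads, a scale chosen after the data were seen. Proteins were aligned globally with BLOSUM62 from translated coding sequences. The steps that subtract exon coordinates and rank levels were tested on simulated data. Alternatives were other lengths, other totals, a filter at a base mean of 10 and sums over transcripts. The share of all genes that reach that filter is not given, so counts of list genes reaching it are descriptions only. Python 3.11.15, numpy 2.4.6, pandas 2.3.3, Biopython 1.88 and matplotlib 3.10.9 were used.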

Additional observations from a re-analysis of the deposited data

How the results depend on the processing

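The receptor share of the summed level per kb moved with the length used. It was 43.1% in the p8 tables, 47.2% in the stage table and 12.7% in the mutant table with the longest transcript. In the mutant table Ephb3 makes up 95.2% of the receptor level, where the other 4 receptors have 2 listed transcripts each, so the share there is not comparable with the others. With coding length the shares were 27.7%, 34.6% and 6.20% in the same order, and with the mean transcript length 56.6%, 62.1% and 18.4%. Ephrin coding sequences are short beside their transcripts, so coding length raises the ligands by 3.12 to 4.75 times and the receptors by 1.24 to 3.68 times. Summing transcripts in the mutant table could not change its share of 12.7% or the 8 levels, as no member had more than 1 transcript above 0. Other lengths, totals, filters and rank scales moved the scaled levels and percentiles of single genes by construction, except the level of Efnb3 on the mean length, as it has 1 annotated transcript. The percentile of Ephb2 in the stage table was 95.2 by base mean and 78.6 per kb. The log2 ratio of Efnb3 between the p8 and mutant tables was -0.12 and turned to 0.36 with totals that leave out the 20 highest features, a scaling chosen after seeing the data. No paired analysis was possible because the tables hold no values per sample, and for the same reason no replicate could be left out. Precision cannot be given without depth per sample.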

Other observations

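Among genes with 2 listed transcripts and a base mean of at least 100 in the stage table, the level in the mutant table was compared with how much sequence the transcripts do not share. Where no exonic base was held by one transcript alone in the GENCODE models (270 genes), 43.3% had a summed base mean under 1 and the median was 1.99. Where such bases made up over 20% of the exonic bases (884 genes), 16.1% were under 1 and the median was 25.8. Of 336 genes with up to 5%, 45.5% were under 1 with a median of 1.33, so that the order does not hold between the lowest bins. Of 549 genes with over 5% and up to 20%, 28.8% were under 1 with a median of 5.11. This is a description across genes, which are not independent replicates.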
